A study of Brachypodium distachyon with 7 samples.

Results

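FUL2 (Bradi1g59250) and SOC1 (Bradi1g77020) are MADS-box genes, members of a family of plant transcription factors that bind DNA together. Some members of this family act in the change from leaf to flower production. FUL2 and SOC1 were picked by locus identifier and are 2 of the 16434 genes with a deposited value. Both had values in all 7 libraries, for both histone marks. In temperate grasses the FUL-like genes, among them VRN1, act in the shoot tip to promote the transition to flowering. SOC1 is best known from Arabidopsis as a gene that gathers flowering signals, and its rice counterpart also promotes flowering. H3K27me3 is laid down by Polycomb complexes on genes kept silent, and H3K4me3 marks the start of genes that are transcribed. At VRN1, long cold is known to lower H3K27me3 while the gene is switched on.

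The seedlings were Brachypodium distachyon of the diploid line ABR1, raised at 24 °C with 16 h of light and 8 h of dark per day, and chromatin came from pooled aerial parts. V0 seedlings were taken 17 days after sowing and had no cold. V30 seedlings had 14 days of growth followed by 30 days at 4 °C, and V30N seedlings had 7 days of growth, 30 days at 4 °C and 7 days back at 24 °C. No transgene or mutation was listed in any group. The labels describe the groups as matched in developmental stage. V0 seedlings were younger than the others, so the effects of age and cold cannot be told apart in differences from V0. V30 and V30N seedlings had the same total age but differed in growth before cold (14 and 7 days). In V30N minus V30 this cannot be told apart from the return to warmth. H3K4me3 was profiled in 4 libraries, 2 of V0 and 1 each of V30 and V30N, and H3K27me3 in 3 libraries, 1 per condition. The series' design text calls the second V0 library a biological replicate without saying how plants were divided. The p-values rest on the spread between those V0 libraries, which also differed in value spacing and fill values, described below. Pools of whole shoots mix tissues, so a share of cells with a mark and the amount of mark per cell cannot be told apart.

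H3K27me3 values covered 6554 genes and H3K4me3 values 11752 genes, with 1872 genes in both. Each library gave 1 signal value per gene. The sources used here give neither its unit, nor any correction for gene length, nor the sequencing depth. Differences were therefore taken within each gene across libraries. Ranks, genes of like level and FUL2 to SOC1 ratios compare different genes and may depend on gene length. The libraries also differed in how their values were spaced. Low H3K27me3 values lay on a regular spacing that was divided into 34 finer steps in V30 and into 48 in V0 and V30N. In H3K4me3, V0 library 1 and V30 had 34 finer steps, while for V0 library 2 and V30N no division was found (mean cosine of at most 0.0971, where 1 is a perfect fit). H3K4me3 tables also held a fill value shared by many genes, 22.3 at 1139 genes of V0 library 1, and 2429 genes had such a value in at least 1 library.

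H3K27me3 at both genes was highest at the end of cold and lowest after the return to warmth. At FUL2 the signal was 1202 without cold, 1518 in V30 and 1098 in V30N. The V30 value was 1.26 times that of V0, and the V30N value 0.914 times. FUL2 ranked 23rd, 24th and 32nd from the top in these libraries, so its place near the top of the table hardly moved. At SOC1 the signal was 360 without cold, 539 in V30 and 316 in V30N. The V30 value was 1.4996 times that of V0, and the V30N value 0.879 times. SOC1 moved up from rank 910 in V0 to rank 523 in V30 and stood at rank 1120 in V30N. With 1 library per condition there is no replicate check on any of these differences.

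**Figure D1:**
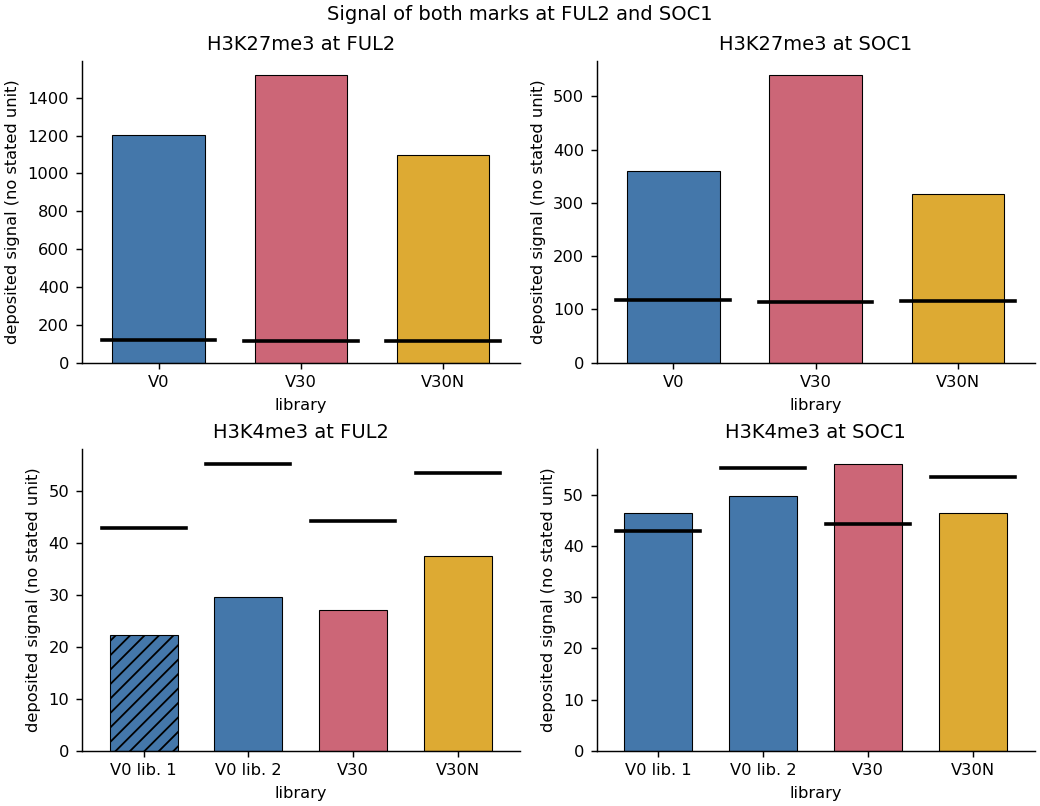
Deposited signal (vertical axis, no stated unit, from 0) of H3K27me3 (top) and H3K4me3 (bottom) at FUL2 (left) and SOC1 (right), 1 bar per library, with a black line at that library's median over all genes. V30 is the highest H3K27me3 bar for both genes, the hatched H3K4me3 bar of FUL2 is the fill value of 22.3, and H3K4me3 of SOC1 stands above the library median in V0 library 1 and V30 and below it in the others.

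The difference between V30 and V0 depended on level across the whole table, so both genes were set beside the 100 genes nearest to them in mean level. All differences here are on the scale of log2(signal + 27.3), which understates changes of low genes. With genes divided into 10 groups of equal size by level, the median V30 minus V0 difference went from -0.10 in the lowest group to 0.22 in the highest. For V30N minus V0 it lay between -0.03 and 0.03 in all 10 groups. The V30 library was also the one with the other value spacing, so cold and this technical split cannot be told apart for H3K27me3, and no comparison of V30 within 1 type of spacing exists.

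**Figure D2:**
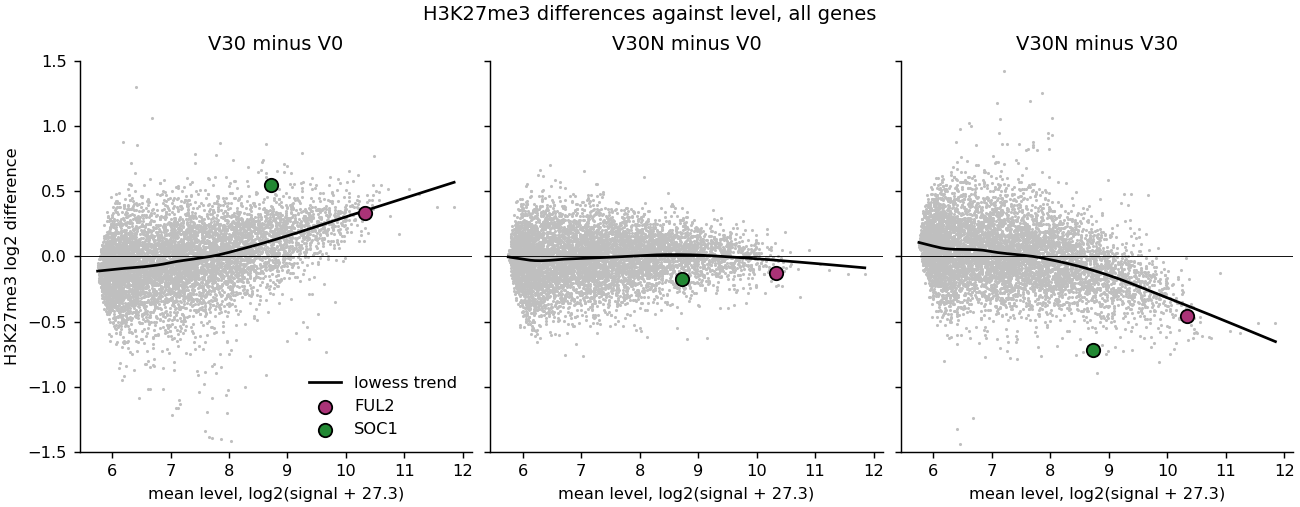
H3K27me3 log2 difference (vertical axis) against mean level over the 3 libraries (horizontal axis, log2 scale) for each pair of conditions, with all genes in grey, a lowess trend in black and FUL2 and SOC1 as large points. FUL2 lies on the trend for V30 minus V0 while SOC1 lies 0.43 above it; 3 genes of V30 minus V0 and 1 of V30N minus V30 fall outside the axis limits of ±1.5.

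At SOC1, H3K27me3 in V30 was 0.55 above V0, higher than at all 100 genes of like level. Those genes had mean signals of 380 to 410, a median difference of 0.11, an SD of 0.17 and a highest value of 0.51. SOC1 ranked 62nd of 6554 genes by this difference, and 165th with the trend with level removed, at 0.43. This difference fell short of 1.5-fold, as did, by very little, the ratio of the signals without a pseudocount (1.4996). In all, 0.61% of genes were higher in V30 by at least 1.5-fold and 1.83% were lower, and neither FUL2 nor SOC1 was among them. With libraries centred on their medians SOC1 was at 0.59, just past 1.5-fold, and all genes gave 64 higher and 97 lower genes in place of 40 and 120.

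At FUL2, H3K27me3 in V30 was 0.33 above V0, which was the usual difference for its level. The 100 genes of like level had a median difference of 0.34 (SD 0.14), and 47 of them had a smaller value than FUL2. Their mean signals ran from 908 to 1694, with 18 of the 100 above FUL2 in level. With the trend with level removed the difference was -0.02, and with the median of the like-level genes subtracted it was -0.0052. The V30 difference at FUL2 was thus close to that of the other genes with as much H3K27me3.

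**Figure D3:**
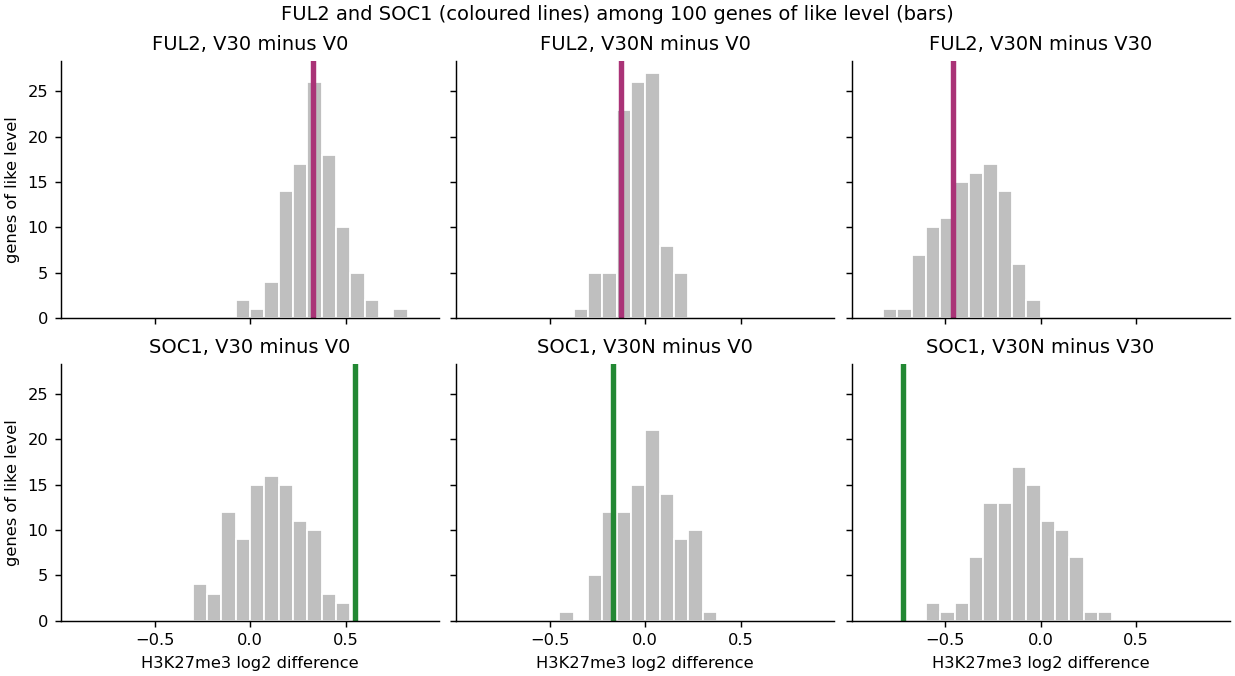
Number of genes (vertical axis) by H3K27me3 log2 difference (horizontal axis) among the 100 genes nearest in mean level to FUL2 (top) and SOC1 (bottom), with the gene itself as a coloured line. SOC1 lies beyond all 100 genes for V30 minus V0 (0.55) and for V30N minus V30 (-0.72), while FUL2 lies inside each group.

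After 7 days back in warmth, H3K27me3 at SOC1 was lower than at the end of cold. V30N was 0.72 below V30 (-0.72), lower than at all 100 genes of like level, whose median was -0.10 and lowest value -0.55. SOC1 ranked 19th from the lowest of 6554 genes. By at least 1.5-fold, 0.946% of genes were lower, SOC1 among them, and 1.16% were higher. That is 62 lower and 76 higher genes, which became 75 and 64 with libraries centred and 131 and 314 with a pseudocount of 1, with SOC1 among the lower genes in each. At FUL2 the V30N minus V30 difference was -0.46, with 29 of 100 like-level genes lower and a median of -0.36. These differences rest on the same V30 library as those against V0, so they are not separate evidence.

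Between V30N and V0, libraries with the same type of value spacing, H3K27me3 at both genes was slightly lower in V30N. The difference was -0.17 at SOC1 and -0.13 at FUL2. In each case 15 of the 100 like-level genes were lower still, and the SDs of those genes were 0.16 and 0.11, so FUL2 and SOC1 lay about 1 SD below the usual difference for their level. In all, 0.107% of genes were higher and 0.244% lower by 1.5-fold, with neither gene among them. The ratio of FUL2 to SOC1 signal within a library, which does not change when a library is multiplied by a factor, was 3.34 without cold, 2.81 at the end of it and 3.47 after the return to warmth. The ratio was lowest in V30.

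H3K4me3 signal at SOC1 lay between 46.5 and 56.2 in the 4 libraries. Signal was 46.5 and 49.9 in the V0 libraries (48.2 ± 2.39, SD, n = 2), 56.2 in V30 and 46.5 in V30N. The V30 value was the highest of the 4, and the V30N value lay between the V0 libraries. On the scale of log2(signal + 9.41), V30 was 0.19 above V0 (SE 0.39, limma adjusted p over all genes = 0.9999), and V30N minus V0 was -0.04 (SE 0.39, limma adjusted p = 0.99996). V30N minus V30 was -0.23 (SE 0.46, limma adjusted p = 0.9996). The SE is limma's trend value for a gene of this level and is wider than the gap of 0.08 between the gene's own V0 libraries. That trend comes from the V0 pair, whose libraries differ in value spacing, so the SE includes this technical split. Within the library type of V0 library 1, V30 minus V0 was 0.23, and within that of V0 library 2, V30N minus V0 was -0.08. With libraries centred on their medians, V30 minus V0 was 0.30, V30N minus V0 was -0.15 and V30N minus V30 was -0.46. Quantile normalization gave 0.28, -0.18 and -0.46.

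SOC1 was also set beside genes of like H3K4me3 level. The 100 genes nearest in mean H3K4me3 level, none with a fill value, had a median V30 minus V0 difference of -0.11 (SD 0.28), and 86 of them lay below SOC1. For V30N minus V30 their median was 0.20 (SD 0.31), and 91 lay above SOC1. Both of these mix libraries of different value spacing. Within 1 type, 78 lay below SOC1 for V30 minus V0 library 1, and 40 lay below and 60 above for V30N minus V0 library 2. SOC1 stood above 56.8% and 39.8% of genes in the V0 libraries, above 70.0% in V30 and above 36.2% in V30N. The V0 libraries thus differed by 17.0 percentage points between themselves, and SOC1 was above the median gene in V0 library 1 and V30 and below it in V0 library 2 and V30N, the same split as the value spacing.

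H3K4me3 at FUL2 was low in every library. Signal was 22.3 and 29.6 in the V0 libraries, 27.2 in V30 and 37.5 in V30N, where the median gene had 53.6. The V0 library 1 value is the fill value, so V0 rests on library 2 alone. Against that library, V30 (of another value spacing) differed by -0.09 and V30N (of the same type) by 0.26 on the log2 scale. Against both, as fitted, the values were 0.06 (SE 0.44, limma adjusted p = 0.9999) and 0.41 (SE 0.44, limma adjusted p = 0.99996), and the sign for V30 turned when library 1 was left out. V30N minus V30 was 0.36 (SE 0.51, limma adjusted p = 0.9996), or 0.13 with libraries centred on their medians and -0.037 after quantile normalization. Among the 100 genes nearest to FUL2 in H3K4me3 level, 63 had a lower V30 minus V0 library 2 difference and 70 a lower V30N minus V30 difference. Both of these compare libraries of different value spacing. Within the same type, 94 had a lower V30N minus V0 library 2 difference (median -0.06, SD 0.20).

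Of the 2 genes, 0 passed limma's test for H3K4me3 in any pair of conditions, and 0 had an unadjusted p under 0.05. Over all genes, 0.536% passed for V30 minus V0, 0.0255% for V30N minus V0 and 0.289% for V30N minus V30. Centring the libraries added 0.12, -0.11 and -0.23 to every H3K4me3 difference in these 3 pairs.

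Few genes of these H3K27me3 levels had both marks. Of the 100 genes nearest to FUL2 in H3K27me3, 10 had an H3K4me3 value, and of the 100 nearest to SOC1, 12 did, against 28.6% of all genes in the H3K27me3 table. Of the 23 genes with a higher mean H3K27me3 level than FUL2, 6 had one, a share near that of all genes. Among its 10 like-level genes with both marks, FUL2 was in the middle for H3K4me3, with 5 lower and 5 higher in V0 library 2 and in V30N, and 4 lower and 6 higher in V30. SOC1 was towards the upper end of its 12, with 10 lower in V0 library 1 and V30 and 9 lower in V0 library 2 and V30N. For H3K4me3 differences, FUL2 lay above 3 of these 10 genes for V30 minus V0 library 2 and above all 10 for V30N minus V30. Both set libraries of different value spacing against each other. For V30N minus V0 library 2, within the same type, FUL2 lay above 8. For V30 minus V0 library 1, SOC1 (0.23) lay above 10 of the 11 that had no fill value in either library. For V30 minus V0 library 2 (0.15), which mixes types of value spacing, SOC1 also lay above 10 of 11. At SOC1, V30 was the highest library in both marks, and its H3K4me3 difference did not pass the test.

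In the order of locus identifiers, the nearest 5 listed loci on each side differed around the genes. FUL2 stood in a run: of its 10 neighbours, 4 had an H3K27me3 value, the 3 just before it and the 1 just after. The locus before it, Bradi1g59240, had 295 in V0, 331 in V30 and 253 in V30N, the same order of conditions as FUL2. The locus after it, Bradi1g59260, had 176, 175 and 177, with no such order. Over the 4 loci, V30 minus V0 ran from -0.0041 to 0.23, with 3 above 0.

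SOC1 had no H3K27me3 value at the 3 loci on either side, all of which had H3K4me3 values. The nearest loci with H3K27me3 were 4 listed loci away on each side, and at both V30 was the lowest library, the opposite of SOC1. Bradi1g76970 had 379 in V0, 288 in V30 and 354 in V30N, a V30 minus V0 difference of -0.37. Bradi1g77070 had 560, 486 and 656, a difference of -0.19. The higher V30 value at SOC1 was thus not shared by these loci. Of the 10 neighbours of each gene, 9 had H3K4me3 values, and 4 of those near FUL2 and 2 of those near SOC1 held a fill value in at least 1 library.

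**Figure D4:**
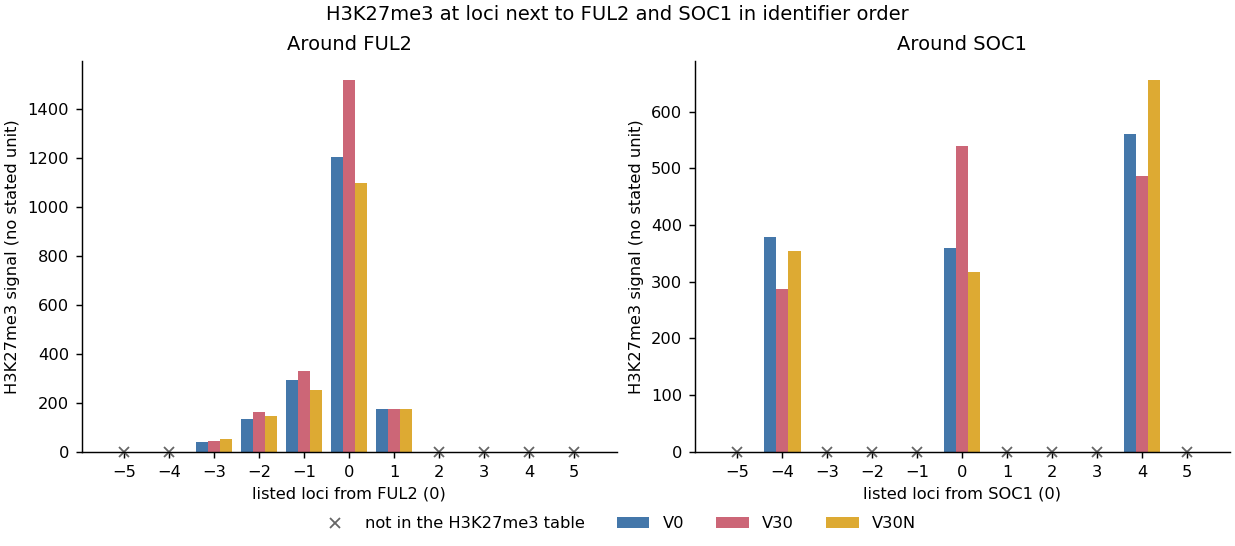
H3K27me3 signal (vertical axis, no stated unit, from 0) in V0, V30 and V30N at the 5 listed loci on each side of FUL2 and SOC1 (horizontal axis, number of loci away in identifier order), with crosses for loci outside the H3K27me3 table. FUL2 stands in a run of 5 loci with the mark, SOC1 stands alone, and at the loci 4 away from SOC1 the V30 bar is the lowest.

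Of 15 other flowering loci listed by identifier, 7 had H3K27me3 values, 7 had H3K4me3 values and 5 had neither. For V30 minus V0, SOC1 had the opposite sign to VRN1, a MADS-box relative. VRN1 (Bradi1g08340) had 726 in V0, 474 in V30 and 460 in V30N, a V30 minus V0 difference of -0.59, below all 100 genes of its level. FT2 (Bradi2g07070), related to the florigen gene FT1, had 337, 225 and 209, with 1 of 100 like-level genes lower for V30 minus V0. At VRN1 and FT2 the V30N value was nearer to that of V30, whereas at SOC1 it was nearer to that of V0. At FUL2 it was also nearer to V0, as it was for the median of its like-level genes (0.34 for V30 minus V0 and -0.03 for V30N minus V0). MADS37 (Bradi3g41297), a grass relative of the Arabidopsis flowering repressor FLC, had 168, 185 and 159, the same order of conditions as SOC1, with 73 of 100 like-level genes below it for V30 minus V0.

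The other listed loci lay inside the middle 90% of their like-level genes for both differences from V0. FT1 (Bradi1g48830) had 565, 628 and 604, and VRN2L (Bradi3g10010), related to the repressor VRN2 of cereals, had 178, 151 and 177. CO1 (Bradi1g43670), a CONSTANS-like gene of the day-length response, had 47.0, 51.7 and 64.7. ELF3 (Bradi2g14290), part of the evening complex of the clock, had 73.3, 67.0 and 56.5. For V30 minus V0 of H3K27me3, 3 of the 7 loci were above 0 and 4 below, with a median of -0.09 against -0.0099 over all genes. By 1.5-fold, 0 were higher and 1, VRN1, was lower, against 0.61% and 1.83% of all genes. For V30N minus V0 the median was -0.06 against -0.0063 over all genes, with 0 higher and 2 lower by 1.5-fold, VRN1 and FT2, against 0.107% and 0.244% of all genes.

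**Figure D5:**
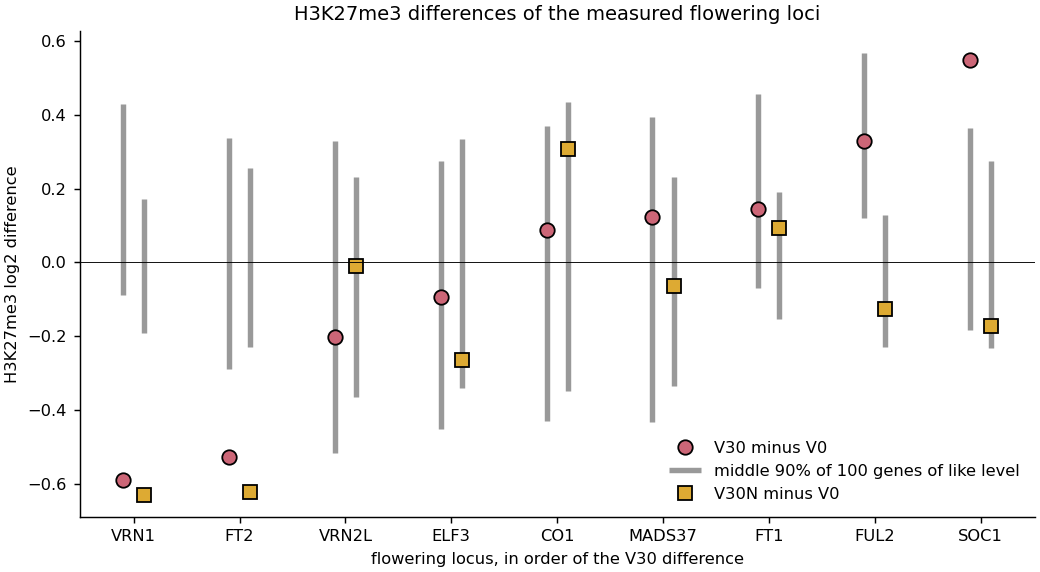
H3K27me3 log2 difference from V0 (vertical axis) of V30 (circles) and V30N (squares) at the measured flowering loci (horizontal axis, ordered by the V30 difference), with grey bars for the middle 90% of the 100 genes of like level. SOC1 stands above its bar in V30 and inside it in V30N, FUL2 stands inside both, and VRN1 and FT2 stand below both.

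In H3K4me3, 0 of the 7 other flowering loci passed limma's test over all genes in any pair of conditions (smallest adjusted p = 0.378, at VRN1 for V30 minus V0), against 0.536% of all genes for V30 minus V0. At an unadjusted p under 0.05 there were 2 of the 7 for V30 minus V0, VRN1 and VRN2L, against 585 of 11752 genes. VRN1 held the fill value in both V0 libraries and VRN2L in 1 of them. FT2 held a fill value in both V0 libraries and in V30N. For V30 minus V0 the median of the 7 was 0.13 against -0.08 over all genes. For V30N minus V0 it was 0.15 against 0.09. Both medians include VRN1, VRN2L and FT2, so they depend on fill values. At the loci without fill values, V30 minus V0 was 0.13 (ELF3), -0.10 (PHYB), -0.15 (PHYC) and -0.23 (ODDSOC1). There V30N minus V0 was -0.05, 0.26, 0.15 and -0.08 in the same order. ODDSOC1 (Bradi2g59120), an FLC relative of grasses with no value in the H3K27me3 table, had 64.5 and 91.8 in the V0 libraries, 64.1 in V30 and 72.7 in V30N. V30 was close to V0 library 1, and V30N lay between the V0 libraries. PHYB (Bradi1g64360) and PHYC (Bradi1g08400), which encode light receptors, had V30 minus V0 differences of -0.10 and -0.15, both smaller in size than their SEs of 0.31 and 0.29. At PHYB the sign depended on the V0 library. V30 was 0.20 above V0 library 1, of the same value spacing, and differed by -0.41 from V0 library 2. At PHYC these differences were -0.06 and -0.24.

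The genes most like each in pattern over the libraries were found among the 1871 other genes with both marks, by Euclidean distance of log2 values with each gene's mean per mark removed. For FUL2, over the 6 libraries without its fill value, the nearest were Bradi5g20410 (distance 0.0824) and Bradi4g10230 (0.131), against a median distance of 0.543. Bradi5g20410 had H3K27me3 of 107, 148 and 99.9 in V0, V30 and V30N. Its H3K4me3 was 45.1 in V0 library 2, 38.4 in V30 and 52.8 in V30N. For SOC1, over all 7 libraries, the nearest were Bradi1g52187 (0.233) and Bradi4g05210 (0.242), against a median of 0.781. Bradi1g52187 had H3K27me3 of 314, 425 and 241. Its H3K4me3 was 12.2 and 9.87 in the V0 libraries, 12.7 in V30 and 10.8 in V30N. These values are close to the pseudocount of 9.41, so its H3K4me3 differences are understated and its likeness to SOC1 in that mark is uncertain. FUL2 and SOC1 were not each other's nearest genes, though both distances lay below the median distance. SOC1 came 596th of 1871 in the order from FUL2 (0.465), and FUL2 143rd of 1871 in the order from SOC1 (0.513). The order from SOC1 includes the fill value of FUL2 in V0 library 1.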

How the data were processed

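The deposited files held 1 signal value per gene and library for H3K4me3 or H3K27me3. The authors' reads were aligned with Bowtie2 2.1.0, per the submitters' processing notes. Build, annotation, region calling, input correction and the scaling of the signal are not given in the sources used here. None of the 16434 locus identifiers matched the reference gene table (assembly Brachypodium_distachyon_v3.0), so gene names were attached to listed identifiers from published assignments. No coordinates were used.

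Signal was put on a log2 scale after adding a pseudocount, 9.41 in H3K4me3 and 27.3 in H3K27me3 (each mark's 1st percentile). H3K4me3 was tested with limma 3.58.1 in R 4.3.3 (1 coefficient per condition, variance trend, Benjamini-Hochberg over 11752 genes, threshold 0.05). Only V0 was replicated, so its spread stood for all conditions, and the variance prior outweighed the gene's own spread. The V0 libraries differed in value spacing and in genes with a fill value (1139 in library 1 and 74 in library 2). Their spread therefore includes this technical split. H3K27me3 had no test. Genes of like level were the 100 nearest in mean log2 value over the 3 H3K27me3 libraries, and counts by size used 1.5-fold. The level trend was removed by lowess (fraction 0.3, statsmodels 0.14.6). A value shared by at least 50 genes of a library was called a fill value. Spacing was searched below 45 for H3K27me3 and below 20 for H3K4me3, with values within 0.0012 counted as on a step. Named genes were FUL2, SOC1, every measured locus of the flowering list, the 2 loci most like each gene in pattern and the loci next to each in identifier order; of the neighbours, those named for opposite H3K27me3 values were chosen after their values were seen. The genes and lists were chosen with earlier results of these data known. The limma, like-level and lowess steps were tested on simulated data. Those data had the same noise for all genes, with no differences between libraries in scale, fill values or value spacing. The simulation therefore does not cover these features of the real libraries. Alternatives covered pseudocount, scaling, filter, variance prior, fill values, window of like level and each V0 library.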

Additional observations from a re-analysis of the deposited data

How the results depend on the processing

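Of 84 recomputed differences at FUL2 and SOC1, 78 kept their sign, and for H3K4me3 none passed limma's threshold in any setting with a test. For V30 minus V0 of H3K27me3, SOC1 passed 1.5-fold with libraries centred and in no other setting. At FUL2, the H3K27me3 difference of V30 minus V0 (0.33) became -0.0072 with quantile normalization, -0.021 with the level trend removed and -0.0052 with the median of like-level genes subtracted, each of which takes out what genes of that level share. V30N minus V30 (-0.46) became -0.081, -0.081 and -0.10 in the same settings. SOC1 kept 0.41 to 0.59 for V30 minus V0 and -0.77 to -0.61 for V30N minus V30 in all 6 settings each. With 50 or 200 genes of like level, level taken from the remaining library, or like-level genes with both marks (the last chosen after seeing the data), SOC1 stayed at percentile 98.5 to 100 for V30 minus V0 and 0 to 2 for V30N minus V30, whereas FUL2 ranged from 36 to 75 and from 14 to 40. For H3K4me3, leaving out 1 V0 library gave -0.095 to 0.21 for FUL2 in V30 minus V0 and -0.084 to 0.00041 for SOC1 in V30N minus V0; quantile normalization gave -0.037 for FUL2 in V30N minus V30, and the cause was not tested. With 1 V0 library left, no test was possible for want of residual degrees of freedom. Of all genes, limma called 63, 3 and 34 in the 3 pairs, and 0 with median centring, quantile normalization or no variance trend (74 to 860 at an unadjusted p under 0.05). Without genes with fill values it called 3, 2 and 2. With a pseudocount of 1, 481, 198 and 445 genes passed 1.5-fold in H3K27me3 in place of 160, 23 and 138, and with that of the 5th percentile 13 passed for V30N minus V0. FUL2 had no value without genes with fill values or without the lowest 25% of genes. No paired analysis was possible because the conditions share at most 1 replicate number. Depth is not given, so no counting interval was computed.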
